A study of Mus musculus with 2 samples.

Results

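The cells described here are 1523 liver cells of library 1 in which the Kupffer cell genes Clec4f, Cd5l and C1qa together made up at least 1% of the cell's unique molecular identifiers (UMIs, 1 per captured transcript) and 6 sinusoidal endothelial genes (Ptprb, Kdr, Clec4g, Oit3, Gpr182, Egfl7) together less than 0.05%. They are called Kupffer-rule cells. They were chosen from 2673 kept cells, and so made up 57.0% of these (exact Clopper-Pearson 95% interval 55.1 to 58.9), out of 8907 barcodes in the library. Kept cells had at least 200 genes, at most 20% mitochondrial UMIs, and no barcode sequence that occurred in the other library with more than 5 times as many UMIs. The choice used measured expression, so every contrast of these cells with the other cells of library 1 is a description and no test was made of it.

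The study sequenced single-cell RNA from non-parenchymal liver cells of 2 male mice of 8 to 10 weeks, both untreated and littermates, 1 of the genotype Spta wt/wt and 1 of the genotype Spta sph/sph. Macrophages were enriched with magnetic beads carrying an antibody to F4/80, the protein encoded by Adgre1, after the liver had been digested through the portal vein. The share of Kupffer-rule cells is therefore a share of the bead-enriched suspension and not of the liver. The labels tie neither library to a mouse, so no genotype is attached to library 1 or library 2, and with 1 library each no value has a replicate check.

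Kupffer cells are the resident macrophages of the liver sinusoid. They sit within the vessel lumen, where they bind complement-coated particles, bacteria and worn-out red cells, break these down in lysosomes, and return iron from heme to the plasma. Their identity is known to depend on signals from the sinusoidal endothelium, stellate cells and hepatocytes and on transcription factors such as LXR-alpha, encoded by Nr1h3.

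Library 1 held 33099802 UMIs in all, with 500 to 37085 per barcode and a median of 2647. Of its barcodes, 5345 (60.0%) were over the mitochondrial limit, and a further 815 that passed the gene and mitochondrial limits were left out because their sequence occurred in the other library at greater depth. The Kupffer-rule cells held 8900431 UMIs, with 500 to 29011 per cell, a median of 5191 and a median of 2230 genes. The 1150 other kept cells held 4578844 UMIs, with a median of 2995.5 per cell and 1593 genes. Median mitochondrial shares lay close together, at 13.8% in the Kupffer-rule cells and 12.9% in the others. A barcode sequence shared with library 2 was carried by 29 of the Kupffer-rule cells and by 28 of the others. Leaving out every such sequence gave a share of 57.1%.

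The other kept cells were divided by the same limits into 3 groups. Cells past both limits numbered 139, cells past the endothelial limit alone 370, and cells under both limits 641. A reference of 60 lymphocyte-like cells among the others, with at least 0.3% of their UMIs from B, plasma, T and natural killer cell genes, served to show how much of a Kupffer gene's RNA was found in cells that should lack it. Their median depth was 2301.5 UMIs.

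**Figure D1:**
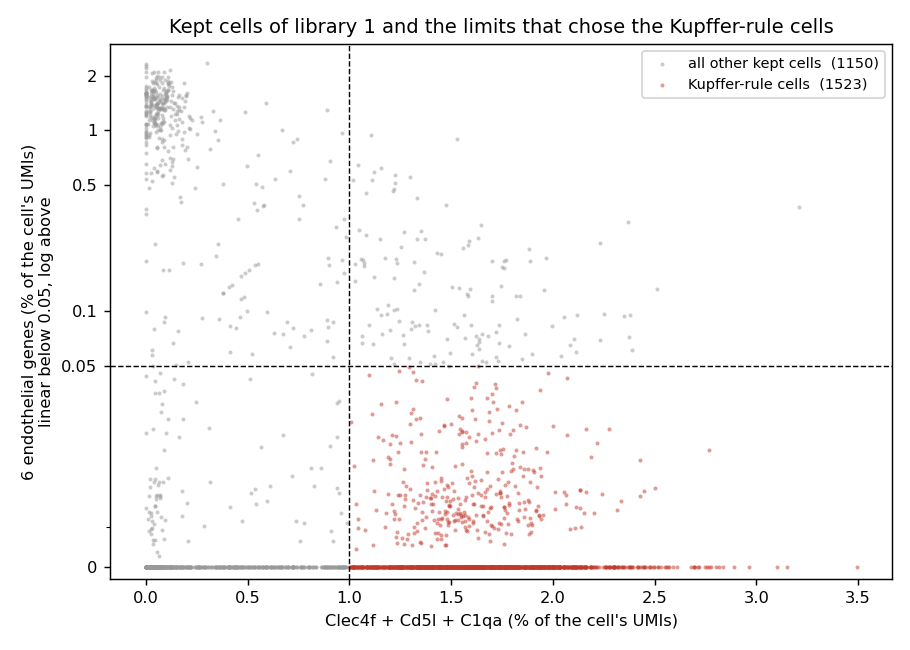
Each point is a kept cell of library 1, with the summed share of Clec4f, Cd5l and C1qa on the x axis and the summed share of 6 endothelial genes on the y axis, both in % of the cell's UMIs, and the dashed lines are the limits of 1% and 0.05%. The 1523 Kupffer-rule cells lie at the lower right, with a median x value of 1.62%. Most of the 1150 others spread over the low x range and along the endothelial axis. Past both limits lie 139 of them, with a median x value of 1.48%.

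The promoters of 4 genes that mark these cells are shown so that the upstream letters of 2 genes of the rule, Clec4f and Cd5l, can be set beside those of 2 markers outside it, Vsig4 and Timd4. The sequences are the bases upstream of the RefSeq transcription start, from the RefSeq table for GRCm38.p6, 5′ to 3′ on the gene's strand. Capitals mark the core letters bound by MAF family factors, TGCTGA or its reverse complement TCAGCA. Maf encodes a member of that family found in macrophages.

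Clec4f, chr6:83656188-83656366, minus strand: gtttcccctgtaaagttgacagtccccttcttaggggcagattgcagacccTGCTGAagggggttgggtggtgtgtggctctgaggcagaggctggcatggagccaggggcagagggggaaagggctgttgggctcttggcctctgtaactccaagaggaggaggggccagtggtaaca
Cd5l, chr3:87357631-87357880, plus strand: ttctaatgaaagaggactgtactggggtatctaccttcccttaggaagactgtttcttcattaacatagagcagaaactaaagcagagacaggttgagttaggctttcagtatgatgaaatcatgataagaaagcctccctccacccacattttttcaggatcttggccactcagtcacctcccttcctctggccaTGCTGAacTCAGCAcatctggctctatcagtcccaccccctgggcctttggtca
Vsig4, chrX:96293439-96293688, minus strand: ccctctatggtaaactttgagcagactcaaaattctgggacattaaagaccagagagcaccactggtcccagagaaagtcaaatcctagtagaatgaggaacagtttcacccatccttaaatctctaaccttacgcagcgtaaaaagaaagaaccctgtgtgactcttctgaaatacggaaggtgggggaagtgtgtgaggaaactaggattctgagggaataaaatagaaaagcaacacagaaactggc
Timd4, chr11:46810549-46810798, plus strand: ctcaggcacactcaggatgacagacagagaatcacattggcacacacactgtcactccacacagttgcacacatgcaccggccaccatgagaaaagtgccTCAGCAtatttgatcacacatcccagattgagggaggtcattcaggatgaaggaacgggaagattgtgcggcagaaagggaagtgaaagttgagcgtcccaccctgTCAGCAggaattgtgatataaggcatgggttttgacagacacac

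Clec4f is shown without the part nearest its start, which lies inside the GENCODE model of the gene. Its window held 1 such MAF core, the windows of Cd5l and Timd4 held 2 each, and that of Vsig4 held none. Over the full upstream windows of 250 bases, 11 of 28 promoters (39.3%) of the 25 genes with the highest ratio, of which 22 had an entry, held the MAF core, against 16.1% of all 32851 promoters in the table. Among the identity genes outside the rule the share was 26.7% (4 of 15 promoters, 14 of 16 genes matched). The letters GAGGAA or TTCCTC, a core bound by PU.1 and other ETS factors, were found in 28.6% (8 of 28) of the promoters of the 25 highest genes, in 26.7% (4 of 15) of those of the identity genes and in 23.3% of all promoters. The Vsig4 window held 2 such cores and the Cd5l window 1, and no ETS core overlapped a MAF core in the windows shown. Both motifs were chosen after the expression values had been seen. A match says only that these letters occur in the window.

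The rule's own genes give the scale of the choice and no more. Clec4f (ENSMUSG00000014542, chr6:83644542-83656187 in GRCm38), a lectin receptor that is the classical mouse Kupffer cell marker, was found in 1514 of the Kupffer-rule cells (99.4%), with a median of 21 UMIs per cell. Its summed level was 4240 UMIs per 1000000 UMIs of the group (CPM) in these cells and 949 CPM in all other kept cells. Cd5l (chr3:87357881-87371073), a secreted macrophage protein known as AIM, stood at 6636 against 1654 CPM. C1qa (chr4:136895917-136898803), a chain of the complement protein C1q, stood at 5351 against 1728 CPM. The summed share of the 3 genes per cell had a median of 1.62% and reached 3.49%. The endothelial genes were near 0 in the Kupffer-rule cells, where Ptprb had a UMI in 10.5% of cells and Oit3 in 0.722%. The other kept cells were not free of the Kupffer genes, since 139 of them were past the 1% limit but were left out for their endothelial share, and the lymphocyte-like reference had Clec4f at 247 CPM.

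Because a cell's own UMIs chose it, each cell's UMIs were also split at random into equal-chance parts. The rule was applied to one part, which chose 1498 cells, and 1335 of these (89.1%) also met the rule on the other part. On the part not used for the choice, Clec4f stood at 4203 CPM in the chosen cells and 1085 CPM in the others, a log2 ratio of 1.95. Vsig4 stood at 2638 against 712 CPM there, a log2 ratio of 1.89. The median share of the rule's genes was 1.62% on both parts. For these 2 genes the levels in the chosen cells were close to those from all UMIs, and those in the remaining cells were higher. Endothelial genes of the rule were higher on the part not used for the choice, with Ptprb at 31.0 CPM against 16.6 CPM and Kdr at 19.6 against 10.0 CPM in the chosen cells.

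All genes, those of the rule included, were compared as summed levels in CPM, over 9431 genes with at least 10 CPM in either group. A gene is called at a ratio of 2-fold, since no spread between libraries exists. In the Kupffer-rule cells 287 genes (3.04%) were at least 2-fold higher than in all other kept cells and 1357 genes (14.4%) at least 2-fold lower, with a median log2 ratio of -0.16 over all 9431. Ratios carry exact conditional 95% intervals, which cover counting error only. The number of higher genes moved with the makeup of the comparison. It was 143 with a mitochondrial limit of 40%, 657 with a limit of 10%, and 29 when at least 2% of UMIs had to come from the rule's genes, a limit that leaves most Kupffer-rule cells among the others.

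The program of Kupffer identity genes that the rule did not use ran through the Kupffer-rule cells. Of 16 such genes, 15 were at least 2-fold higher than in the other cells, where 3.04% of all genes were. The other, Cdh5, was within 2-fold. The median log2 ratio of the 16 was 1.76. Their summed level was 10947 CPM against 3339 CPM, a log2 ratio of 1.71 (1.69 to 1.74). The lymphocyte-like reference had 923 CPM. Against the cells under both limits, all 16 were at least 2-fold higher, where 5.64% of 9068 genes were. Against the cells past the endothelial limit alone, 14 were, where 11.4% of 9745 genes were. The summed log2 ratio was 0.66 at a limit of 2% and 2.53 at a mitochondrial limit of 10%. Without the endothelial limit it was 2.34, when the 139 cells past both limits, which had 9930 CPM of these genes, counted on the Kupffer side.

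Vsig4 and Timd4 were given as markers of these cells but took no part in the choice. Vsig4 (ENSMUSG00000044206, chrX:96247203-96293438) encodes CRIg, the complement receptor with which Kupffer cells catch opsonised bacteria. It stood at 2634 CPM (exact Poisson interval 2601 to 2668) in the Kupffer-rule cells, 348 CPM in the cells under both limits, 207 CPM in the endothelial group and 134 CPM in the lymphocyte-like reference. A UMI of it was found in 97.2% of the Kupffer-rule cells. With each cell thinned to 1000 UMIs, which left 1414 Kupffer-rule cells, 971 others and 58 of the reference, the share was 90.5% (88.9 to 92.0) against 27.9% in the other cells and 10.3% in the reference.

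Timd4 (ENSMUSG00000055546, chr11:46810800-46844332) encodes Tim-4, a phosphatidylserine receptor for dying cells that marks long-resident macrophages. It stood at 369 CPM (357 to 382) against 102 CPM in all other kept cells, a log2 ratio of 1.86. At least 1 UMI was found in 73.2% of the Kupffer-rule cells. After thinning to 1000 UMIs the share was 30.1% (27.7 to 32.6), against 7.52% in the other cells and 1.72% in the lymphocyte-like reference, and thinning to 2000 UMIs gave 51.0%. The share of Timd4-bearing cells thus moved with the depth counted, and the variance-to-mean ratio of its thinned counts was 1.02, where counting alone gives about 1.

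Folr2, the folate receptor beta of resident macrophages, had the highest ratio of all genes named, at 439 CPM against 92.2 CPM (log2 2.25, 2.11 to 2.40), and 13.4 CPM in the lymphocyte-like reference. Fcna, a ficolin that binds microbial sugars, stood at 1965 against 482 CPM (log2 2.03). C6, a part of the terminal complement pore, stood at 1194 against 316 CPM (log2 1.92). Il18bp, the secreted inhibitor of interleukin 18, stood at 521 against 126 CPM (log2 2.04). Each of these was also lower in all 3 groups of other cells than in the Kupffer-rule cells. Pcolce2, an enhancer of procollagen processing, stood at 173 against 38.2 CPM (log2 2.18).

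Lower in ratio were Paqr9 (log2 1.72), the ion channel gene Kcna2 (1.70) and the monocarboxylate carrier gene Slc16a9 (1.57). Marco, a scavenger receptor for bacteria and particles, stood at 476 against 174 CPM (log2 1.45). Adgre4 (1.22), the podoplanin receptor Clec1b (1.19) and the prostaglandin-degrading enzyme Hpgd (1.16) lay below it. Cd209f, a lectin, was rare, at 12.9 against 3.71 CPM. Cdh5, the adherens junction protein VE-cadherin, stood at 567 CPM in the Kupffer-rule cells, 729 CPM in the endothelial group and 99.1 CPM in the cells under both limits. After thinning, 42.9% of the Kupffer-rule cells and 48.5% of the endothelial group had a UMI of it, and thinning to 2000 UMIs gave 66.1% of the Kupffer-rule cells. The lymphocyte-like reference had it at 26.8 CPM, and the endothelial genes Kdr and Tie1 stood at 13.6 and 2.02 CPM in the Kupffer-rule cells.

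**Figure D2:**
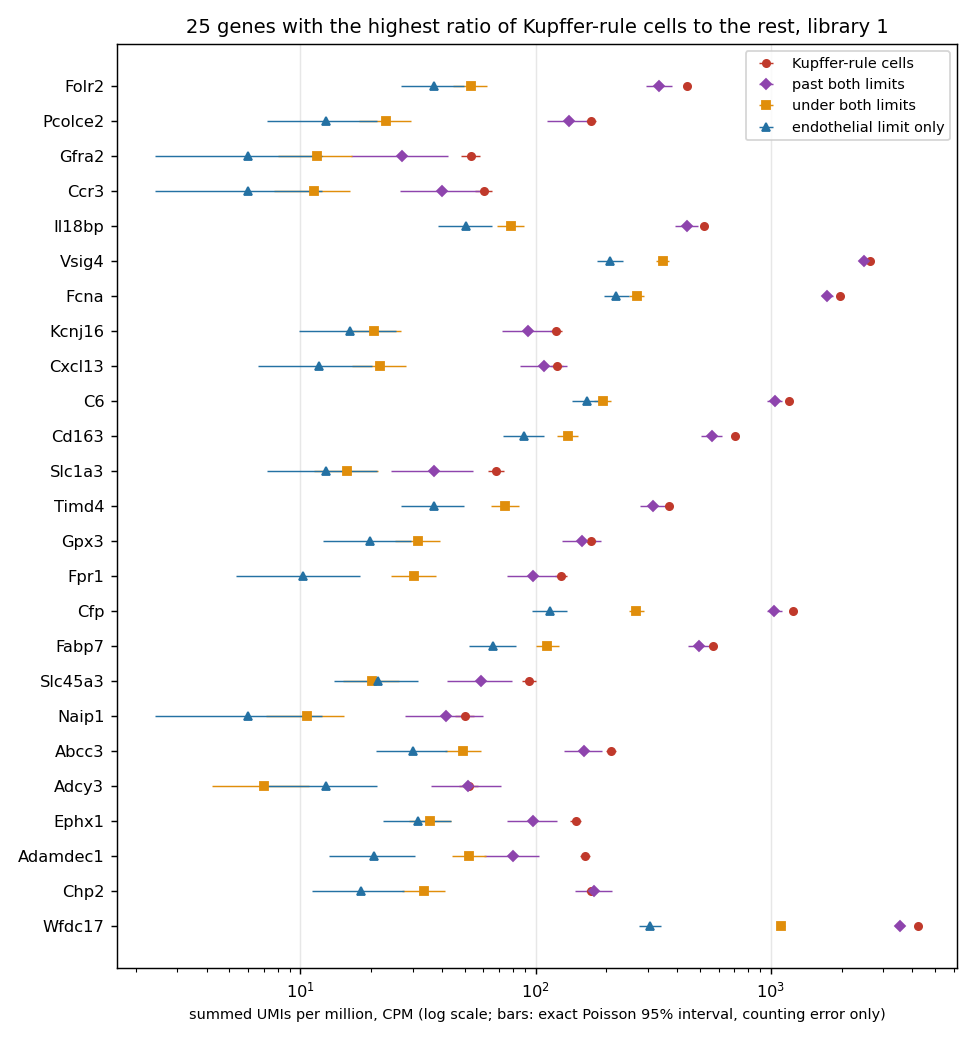
Summed level of each of the 25 genes with the highest ratio to the rest, in CPM on a log axis, for the Kupffer-rule cells and the 3 groups of other kept cells of library 1, with bars for exact Poisson 95% intervals (counting error only). Cells past both limits lie next to the Kupffer-rule cells for most genes (Vsig4 2496 and 2634 CPM), while cells under both limits and cells past the endothelial limit alone lie well below (Vsig4 348 and 207 CPM).

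The 25 genes with the highest ratio ran from Folr2 at the top to Wfdc17. All were at least 2-fold higher against the cells under both limits and against the endothelial group, taken separately. Over all genes the shares were 5.64% and 11.4%. Both groups are part of the rest that ranked the 25 genes, so this follows in part from the choice. Outside the fixed lists the 25 held the chemokine receptor Ccr3 (60.1 against 14.4 CPM, log2 2.06). They also held the GDNF family receptor Gfra2 (53.0 against 12.7 CPM, log2 2.07). Fpr1, a receptor for formylated bacterial peptides, stood at 128 against 35.6 CPM, and Naip1, a sensor of bacterial secretion needles with close paralogs that may share its reads, at 50.1 against 14.2 CPM. The potassium channel Kcnj16, the glutamate carrier Slc1a3, the glutathione peroxidase Gpx3, the bile-conjugate exporter Abcc3 and the epoxide hydrolase Ephx1 had log2 ratios of 2.00, 1.89, 1.85, 1.77 and 1.75. Slc45a3, Adcy3, Adamdec1, Chp2 and Wfdc17 lay between 1.73 and 1.82.

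At the other end, the 12 genes with the lowest ratio were nearly absent from the Kupffer-rule cells. Ramp2, a receptor partner of endothelial adrenomedullin signalling, stood at 1.01 CPM against 143 CPM in all other kept cells and 530 CPM in the endothelial group. Gpihbp1, which anchors lipoprotein lipase on endothelium, stood at 3.71 against 335 CPM. Fcgr2b, an inhibitory Fc receptor, stood at 8.76 CPM in the Kupffer-rule cells and 2013 CPM in the endothelial group. Of the 12, 10 were higher in the endothelial group than in the cells under both limits. The exceptions were the antibody light chain Igkc, at 2.36 CPM in the Kupffer-rule cells and 390 CPM in the cells under both limits, and the monocyte gene F13a1, at 0.674 and 89.1 CPM.

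**Figure D3:**
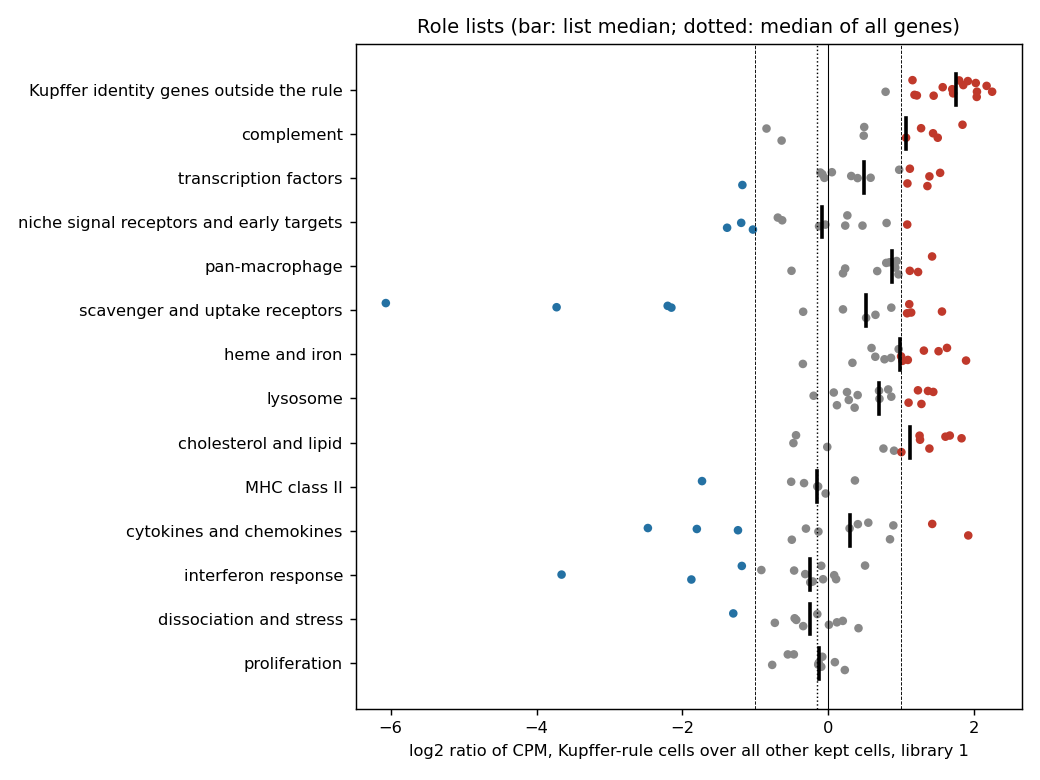
Each point is a gene with at least 10 CPM in either group, placed by its log2 ratio of Kupffer-rule cells to all other kept cells of library 1 and grouped by role, with red for at least 2-fold higher, blue for at least 2-fold lower, a black bar for the list median and a dotted line for the median of all genes (-0.16). The identity list lies furthest to the right, with a median of 1.76, and the class II list lies around 0, with a median of -0.15.

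Complement genes were in part raised in the Kupffer-rule cells. Of 9 members outside the rule 5 were at least 2-fold higher and none was lower by that much, with a median log2 ratio of 1.07. Among all genes 3.04% were that much higher and 14.4% that much lower. C1qc and C1qb, the other chains of C1q, which lie beside C1qa on chromosome 4, stood at 2810 against 990 CPM (log2 1.51) and 2075 against 856 CPM (log2 1.28). Cfp, which encodes properdin and stabilises the alternative pathway convertase, stood at 1245 against 347 CPM (log2 1.84). C4b had a log2 ratio of 1.44, and C3ar1, the receptor for the fragment C3a, 1.07. The central component C3 was within 2-fold at 98.6 against 177 CPM (log2 -0.84), and the cells under both limits had 223 CPM. Cfb and C5ar1 were within 2-fold.

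Among 14 transcription factors 5 were at least 2-fold higher and 1 lower, with a median of 0.49. Those shares over all genes were 3.04% and 14.4%. Nr1h3 (LXR-alpha) stood at 995 against 380 CPM (log2 1.39, 1.32 to 1.47) and its partner gene Rxra at 335 against 154 CPM (log2 1.12). Spic, a factor of red pulp and other iron-recycling macrophages, stood at 105 against 36.3 CPM (log2 1.54), and Tfec at 95.7 against 45.0 CPM (log2 1.09). These were also past 2-fold against the cells under both limits. Maf was within 2-fold of the rest (1738 against 1799 CPM) and the groups of other cells lay on either side of it, with 4095 CPM in the endothelial group and 748 CPM in the cells under both limits. Maf was the only factor at least 2-fold lower than in the endothelial group, where 23.7% of all genes were. Id3 and Zeb2, both known to be needed for Kupffer cell identity, were within 2-fold at log2 ratios of 0.05 and 0.32, and Id1, Irf7, Irf8, Spi1 and Cebpb were too. The Notch effector Rbpj was lower, at 53.5 against 121 CPM (log2 -1.18), and was the only factor at least 2-fold lower than in the cells under both limits, where 12.1% of all genes were.

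Receptors for niche signals did not set these cells apart from the rest. Of 12 genes 1 was higher, 3 were lower and 8 stayed within 2-fold (median -0.08). Over all genes 3.04% were higher and 14.4% lower. Bmpr1a, a receptor for bone morphogenetic proteins, was higher at 18.1 against 8.52 CPM (log2 1.09). Notch1 (70.7 against 161 CPM), Bmpr2 (108 against 221 CPM) and the BMP target Smad6 (18.3 against 47.8 CPM) were lower, and each had its highest level in the endothelial group, at 403, 561 and 145 CPM. Against the cells under both limits their log2 ratios were 0.03, 0.29 and 0.78. The BMP and activin receptor Acvrl1 (log2 0.80), the Notch target Hes1 (0.26), Tgfbr2 (-0.04), Il10ra (0.24) and Ifngr1 (0.47) were within 2-fold.

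Genes of macrophages in general separated the Kupffer-rule cells from the endothelial group more than from the cells under both limits. Of 12 genes 3 were at least 2-fold higher than in all other kept cells, against 3.04% of all genes (median 0.88). They were Adgre1, which encodes the bead target F4/80 (773 against 287 CPM, log2 1.43), the CSF1 receptor Csf1r (1522 against 646 CPM, log2 1.24) and the high-affinity Fc receptor Fcgr1 (log2 1.12). Against the endothelial group 11 of 12 were at least 2-fold higher, where 11.4% of 9745 genes were. Mertk, a receptor for dying cells, was within 2-fold (log2 0.60). Lyz2, the lysozyme of monocytes and macrophages, stood at 1783 CPM in the Kupffer-rule cells and 3753 CPM in the cells under both limits. The signalling adaptors Tyrobp and Fcer1g were close to those cells (log2 -0.25 and -0.18).

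Uptake receptors were split. Of 13 genes 4 were at least 2-fold higher, 4 lower and 5 within 2-fold (median 0.52). The shares over all genes were 3.04% higher and 14.4% lower. The sialic acid receptor Siglec1 (83.3 against 28.2 CPM, log2 1.56), the receptor kinase Axl (815 against 370 CPM, log2 1.14), the Fc receptor Fcgr4 (log2 1.11) and the lectin Clec4n (log2 1.08) were higher. Stab1, a scavenger receptor shared with sinusoidal endothelium, stood at 81.7 CPM against 1154 CPM in the endothelial group. Gas6, the ligand of Axl and Mertk, stood at 21.9 CPM against 345 CPM there, and Mfge8, a bridge to dying cells, at 2.81 against 106 CPM. The mannose receptor Mrc1 was held by both, at 1098 CPM in the Kupffer-rule cells, 1694 CPM in the endothelial group and 271 CPM in the cells under both limits.

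Heme and iron genes leaned to the Kupffer-rule cells, with 7 of 14 at least 2-fold higher, none lower and a median of 0.99. Of all genes 3.04% were that much higher and 14.4% that much lower. Cd163, the receptor for hemoglobin bound to haptoglobin, stood at 705 against 190 CPM (log2 1.89, 1.79 to 2.00). Slc40a1, which encodes ferroportin, the only known iron exporter, stood at 3451 against 1113 CPM (log2 1.63), and Hmox1, the heme-degrading oxygenase, at 1001 against 350 CPM (log2 1.52). The heme carrier Slc48a1 (log2 1.09), the ferritin receptor Ncoa4 (1.32), the metal carrier Slc11a1 (1.02) were higher as well, as was the hemopexin receptor Lrp1, at 693 against 346 CPM. The ferritin chains were within 2-fold. Fth1 stood at 3378 CPM in the Kupffer-rule cells and 3324 CPM in the cells under both limits, and Ftl1 at 5069 and 3636 CPM.

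Lysosomal genes were higher as a list, with summed levels of 24142 against 13003 CPM (log2 0.89). Of 16 genes 5 were at least 2-fold higher and none lower, with a median of 0.70. For all genes the shares were 3.04% and 14.4%. The proteases Ctsb (6615 against 2431 CPM, log2 1.44), Lgmn (3734 against 1443 CPM, log2 1.37), Ctsd (log2 1.28) and Ctsc (1387 against 645 CPM) and the progranulin gene Grn (log2 1.23) made up the 5. The membrane proteins Lamp1 and Lamp2 had log2 ratios of 0.83 and 0.12, and Ctsl -0.20 with 977 CPM in the endothelial group. Hexa, Lipa, Npc1, Npc2, Psap and Ctsz lay between 0.08 and 0.87.

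Cholesterol and lipid genes had 7 of 12 members at least 2-fold higher (all genes: 3.04%), none lower (all genes: 14.4%) and a median of 1.13. The phospholipid transfer protein gene Pltp (917 against 288 CPM, log2 1.67), Apoc1 (1626 against 532 CPM, log2 1.61), the cholesterol exporter Abca1 (453 against 173 CPM, log2 1.39) and the lipase gene Lpl (1487 against 623 CPM, log2 1.26) were among them. The others were the fatty acid binding protein Fabp7 (log2 1.83) and the cholesterol ester enzymes Soat1 (1.01) and Nceh1 (1.26). Several of these are known LXR targets, as are Abcg1 (log2 0.91) and Mylip (-0.44), which were within 2-fold. Apoe stood at 7206 CPM, against 4376 CPM in the cells under both limits and 2916 CPM in the endothelial group.

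As summed levels, antigen presentation genes of MHC class II were not higher in the Kupffer-rule cells than in all other kept cells. Of all genes 3.04% were at least 2-fold higher and 14.4% lower. None of the 7 class II genes was at least 2-fold higher and 1 was lower, near those shares, with a median of -0.15. Their summed level was 13227 CPM in the Kupffer-rule cells, 22999.5 CPM in the cells under both limits and 1917 CPM in the endothelial group. Counted per cell, the order was another. The median class II share of UMIs was 1.07% in the Kupffer-rule cells, 0.323% in all other kept cells and 0.889% in those under both limits. Against the endothelial group all 7 genes were at least 2-fold higher, where 11.4% of 9745 genes were. The invariant chain Cd74 stood at 5859 CPM in the Kupffer-rule cells, 10815 CPM in the cells under both limits and 850 CPM in the endothelial group. Ciita, the activator of the class II genes, was lower, at 23.3 CPM against 123 CPM in the cells under both limits, and was found in 1.20% of thinned Kupffer-rule cells and 8.46% of those cells. H2-Aa was found in 86.1% of thinned Kupffer-rule cells, but also in 65.5% of the lymphocyte-like reference, which includes B cells that make it.

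Of 17 cytokine and chemokine genes 13 reached 10 CPM in either group. Of these 2 were at least 2-fold higher, 3 lower and 8 within 2-fold. Among all genes 3.04% were higher and 14.4% lower. The B cell attractant Cxcl13 (123 against 32.5 CPM, log2 1.92) and the eotaxin Ccl24 (544 against 202 CPM, log2 1.43) were higher. The chemokines Ccl9 (27.0 against 150 CPM), Cxcl2 (5.39 against 18.8 CPM) and Ccl3 (5.84 against 13.8 CPM) were lower, and all 3 were highest in the cells under both limits. Il6, Tnf, Il10 and Ccl2 stayed under 10 CPM in both groups, with Tnf at 1.91 CPM and Il10 at 6.29 CPM in the Kupffer-rule cells. The inflammasome cytokine Il1b stood at 145 against 118 CPM and was within 2-fold.

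Over all genes 3.04% were at least 2-fold higher and 14.4% at least 2-fold lower, the shares to set beside the counts here. Interferon response genes had no member higher and 3 of 13 lower, with a median of -0.24. These were Cxcl10 (11.8 against 149 CPM, log2 -3.66), Isg15 (20.9 against 76.7 CPM, log2 -1.88) and Gbp2 (53.5 against 121 CPM, log2 -1.18). Dissociation and stress genes, which digestion of tissue can induce, had 1 of 10 lower, the immediate early gene Egr1 (36.6 against 90.2 CPM, log2 -1.30), and none higher. All 9 proliferation genes that reached 10 CPM were within 2-fold. The Kupffer-rule cells had Mki67 at 36.4 CPM against 39.7 CPM. At full depth a UMI of any of the 11 proliferation genes was found in 603 of the 1523 cells, a count not adjusted for depth. After thinning, 1228 of 1414 Kupffer-rule cells (86.8%) had no UMI of these genes.

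Markers of other liver cells were low in the Kupffer-rule cells, with exceptions. Endothelial genes outside the rule were all at least 2-fold lower, 7 of 7, where 14.4% of all genes were. They summed to 212 CPM against 2737 CPM. The largest part of that sum was Stab2, at 124 CPM. Monocyte genes summed to 196 against 1288 CPM, with Ly6c2 at 2.13 CPM and Ccr2 at 36.3 against 535 CPM, and most of the sum was Plac8 at 157 CPM. Conventional dendritic genes summed to 34.9 against 251 CPM, with Flt3 at 0.337 CPM, B and plasma cell genes to 27.6 against 198 CPM and T and natural killer genes to 1.46 against 90.0 CPM. Neutrophil genes, 7 in all, summed to 65.2 against 95.9 CPM, and 1101 of the Kupffer-rule cells had no UMI of them. Of the 3 that reached 10 CPM, 2 were at least 2-fold lower. No UMI of Siglech, Ly6g, Camp, Ngp, Klrb1c, Ncr1, Gp9, Gp1bb, Krt19, Epcam, Mcpt8, Cpa3 or Ms4a2 was found in the 8900431 UMIs, which allows up to 0.337 CPM each. Ly6g, Camp and Ngp had no UMI in the other kept cells either, so their absence does not set the Kupffer-rule cells apart.

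Hepatocyte transcripts had like summed levels in the groups compared. The 6 genes summed to 1426 CPM in the Kupffer-rule cells, 1722 CPM in all other kept cells and 1351 CPM in the lymphocyte-like reference, and all 6 were within 2-fold. Alb stood at 657, 706 and 575 CPM. Erythroid genes summed to 301 against 2719 CPM, and 1349 Kupffer-rule cells had none, while 10 had over 1% of their UMIs from them, up to 19.2%. Another 3 cells had over 1% from hepatocyte genes, and no cell had that much from another of these lists. The alpha and beta globin genes are near-identical pairs, so their reads may be split or lost between copies. The part of these transcripts in the values above was not tested.

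Cd207 and Cx3cr1 are both known from capsule macrophages, a population of the liver surface, but they parted in these cells. Cd207, which encodes langerin, stood at 427 CPM in the Kupffer-rule cells against 149 CPM (log2 1.52). It was found in 29.6% of thinned Kupffer-rule cells, in 9.04% of the cells under both limits and in none of the 58 thinned reference cells, which allows up to 5.17% of such cells with a UMI at this depth. Thinning to 2000 UMIs gave 49.8% in the Kupffer-rule cells. Cx3cr1, the fractalkine receptor, stood at 18.0 against 153 CPM (log2 -3.09), with 244 CPM in the cells under both limits. Clec4f, Cd5l and C1qa chose the cells, so the label rests in part on the choice. Of its markers, Vsig4 and Timd4 took no part in the choice, and both were higher in these cells, as a description. Cd207, known from another liver macrophage, was present beside them.

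Along the share of the rule's genes, the identity program climbed without a step at the limit. The cells with under 0.05% endothelial genes were placed in 10 bins of that share, 5 below the limit with 257, 96, 105, 93 and 90 cells and 5 above it with 187, 368, 420, 327 and 221. Vsig4 stood at 70.2, 94.6, 268, 572 and 1419 CPM below the limit and at 1990, 2421, 2681, 2995 and 2953 CPM above it. Folr2 went from 7.39 CPM in the lowest bin to 231 CPM just below the limit, 306 CPM just above it and 558 CPM in the highest bin. Timd4 went from 28.8 to 216, 279 and 443 CPM over the same bins. The identity genes summed to 6526 CPM just below the limit, 8513 CPM just above it and 12672 CPM in the highest bin. Cells with 0.75% to 1% of the rule's genes thus already had part of the program, taken as a group. Whether each of these cells had it was not tested.

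C1qa was already high at shares where the other genes of the rule were low. It stood at 163, 1005, 2666, 3516 and 3366 CPM below the limit, whereas Clec4f stood at 82.8, 245, 414, 901 and 2143 CPM and Cd5l at 166, 417, 694, 1587 and 3408 CPM. The bins between 0.25% and 0.75% were also where Apoe was highest (10008 and 9475 CPM, against 6746 to 7640 CPM above the limit) and where Cx3cr1 (548 and 514 CPM) and Ccr2 (1172 and 949 CPM) were high. Above the limit Ccr2 went from 206 CPM to 35.4, 7.71, 5.03 and 3.10 CPM, and Cx3cr1 from 65.8 CPM to between 3.47 and 28.1 CPM. Class II genes summed to between 22668 and 27935 CPM in the 4 lowest bins, 14342 CPM in the bin just below the limit and 12902 to 13538 CPM above it. Median depth differed along the axis, with 1323 and 1679 UMIs per cell in those 2 middle bins and 5570 in the bin from 1.25% to 1.5%, and its part was not tested.

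**Figure D4:**
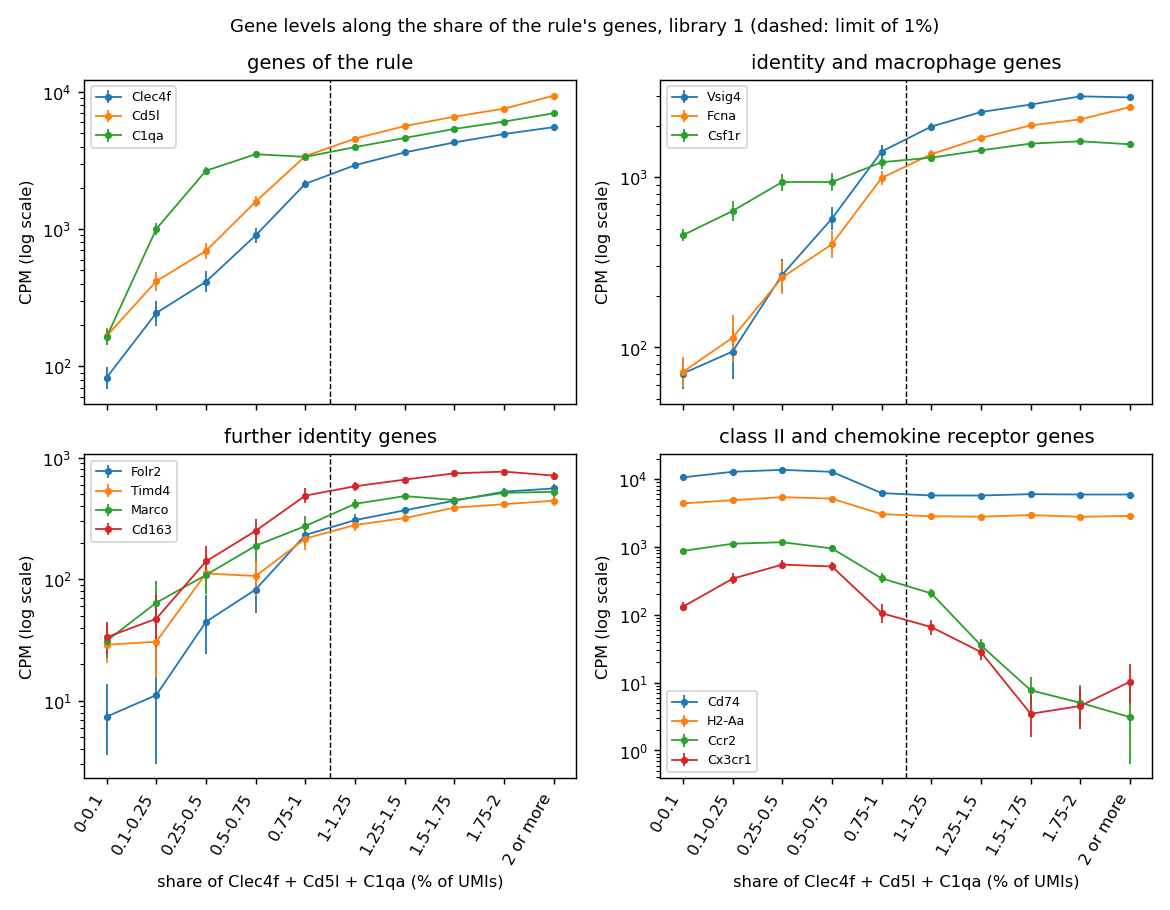
Summed level of named genes in CPM (log axis) in 10 bins of the share of Clec4f, Cd5l and C1qa per cell, for library 1 cells with under 0.05% endothelial genes, with exact Poisson 95% intervals and a dashed line at the limit of 1%. Identity genes climb through the limit (Vsig4 from 1419 to 1990 CPM), while Ccr2 falls from 1172 CPM in the third bin to 3.10 CPM in the last.

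At the edge of the limit the identity genes lay close on both sides. Cells with 0.9% to 1% of the rule's genes numbered 47 and had Vsig4 at 1641 CPM, Folr2 at 271 CPM and Timd4 at 267 CPM. Cells with 1% to 1.1% numbered 60 and had Vsig4 at 1810 CPM, Folr2 at 241 CPM and Timd4 at 205 CPM. The intervals of each of these 3 genes overlapped between the sides. Clec4f, a gene of the rule, stood at 2415 CPM (2216 to 2627) just outside and 2840 CPM (2647 to 3044) just inside, and Apoe at 5805 and 8142 CPM. Ccr2 stood at 187 CPM just outside and 379 CPM just inside, so cells with this monocyte gene are found on both sides of the limit.

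Among the Kupffer-rule cells, the sum of the identity genes stayed level over depth and mitochondrial share, while single members of the list did not. With mitochondrial genes left out of the total, the identity list summed to 12684, 12651 and 12609 CPM in cells with under 10%, 10% to 15% and 15% to 20% mitochondrial UMIs, which numbered 283, 617 and 623. Over 4 depth groups of like size, with median UMIs of 1419, 3920, 6461 and 10172, it summed to 12676, 12823, 12721 and 12534 CPM. Within the list, Folr2 went from 386 CPM (334 to 445) in the shallowest group to 570 CPM (546 to 594) in the deepest, and Marco from 669 CPM (600 to 745) to 483 CPM (461 to 506). Other lists moved with depth as well. The lysosome list went from 34856 CPM in the shallowest group to 25837 CPM in the deepest, and the class II list from 12176 to 16530 CPM.

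Variation among the Kupffer-rule cells was highest for mitochondrial genes and for a few others. For 749 genes with at least 200 CPM, the variance-to-mean ratio over the 1414 thinned cells had a median of 1.05, where counting alone gives about 1. Of the 15 highest genes 8 were mitochondrial. The other 7 were Apoe at 3.65, Marco at 3.23, Wfdc17 at 2.81, Cd74 at 2.71, Hmox1 at 2.41, the sodium pump subunit Atp1b3 at 2.35 and Apoc1 at 1.98. Among the fixed lists H2-Aa (1.91), Lgmn (1.85) and Ctsb (1.68) came next. Clec4f, a gene of the rule, had 1.33. The ratio also depends on a gene's level, so the order is not an order of relative spread.

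Marco was found in a part of the cells, and that part moved with the depth counted. After thinning to 1000 UMIs, 26.3% of the Kupffer-rule cells had a UMI of it, against 8.62% of the lymphocyte-like reference. Thinning to 2000 UMIs gave 34.8% of the Kupffer-rule cells. At 1000 UMIs the highest cell had 14 UMIs of Marco and the 99th percentile was 6. The summed class II genes ran from 0 to 63 UMIs per thinned cell, with a median of 11 and a variance-to-mean ratio of 4.62, the highest of the 14 lists. The identity list ran from 1 to 26 UMIs with a median of 11 and a ratio of 1.45. Across the thinned cells, which come from 1 library and were thinned from different depths, the class II list had a Spearman's rho of 0.37 with the cholesterol and lipid list and -0.22 with the lysosome list, given as a description. The identity list had 0.01 with the class II list and 0.29 with Marco, which is a member of it.

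In library 2 the same rule chose 3584 of 6898 kept cells (52.0%, 50.8 to 53.1), of which 493 carried a barcode sequence also found in library 1. Library 2's other cells have another makeup, with erythroid genes at 218822 CPM against 2719 CPM in library 1, so ratios to the rest are set side by side only. Of the 25 highest genes of library 1, 23 reached 10 CPM in library 2 and all 23 were at least 2-fold higher there than in the rest, where 16.6% of 8467 genes were. Cxcl13 and Slc1a3 were under 10 CPM in both groups of library 2. Vsig4 had log2 ratios of 2.04 in library 1 and 2.37 in library 2, Folr2 2.25 and 2.48, Timd4 1.86 and 2.11, and Fcna 2.03 and 2.26.

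Between the Kupffer-rule cells of the 2 libraries, 2.74% of 8210 genes passed 2-fold upward in library 2 and 9.88% downward, with a median log2 ratio of -0.32 over all of them. Of the 16 identity genes 12 were within 2-fold, 1 was higher and 3 were lower in library 2. Marco was the higher one, at 13013 CPM in library 2 against 476 CPM in library 1, and was found in 99.5% of thinned library 2 cells. Cd209f (0.500 against 12.9 CPM), Cdh5 (266 against 567 CPM) and Hpgd (403 against 847 CPM) were the lower ones. Vsig4 (2136 against 2634 CPM), Folr2 (314 against 439 CPM), Timd4 (247 against 369 CPM) and Fcna (3279 against 1965 CPM) were within 2-fold. Erythroid genes summed to 44706 CPM in the Kupffer-rule cells of library 2 and 301 CPM in those of library 1, and the part of this in the differences was not tested.

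Among the 25 highest genes, 16 were within 2-fold between the libraries, 3 were higher in library 2 and 6 were lower. The higher ones were Gfra2 (150 against 53.0 CPM), Ccr3 (259 against 60.1 CPM) and Wfdc17 (14059 against 4237 CPM). The lower ones were Cxcl13 (2.00 against 123 CPM), Cd163 (121 against 705 CPM), Slc1a3 (8.35 against 67.9 CPM), Adamdec1 (38.5 against 162 CPM), Fabp7 (196 against 567 CPM) and Naip1 (19.4 against 50.1 CPM). Each of the 7 class II genes passed the 2-fold limit downward in library 2, and their summed levels were 936 against 13227 CPM. With 1 library each, these values compare 2 libraries.

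**Figure D5:**
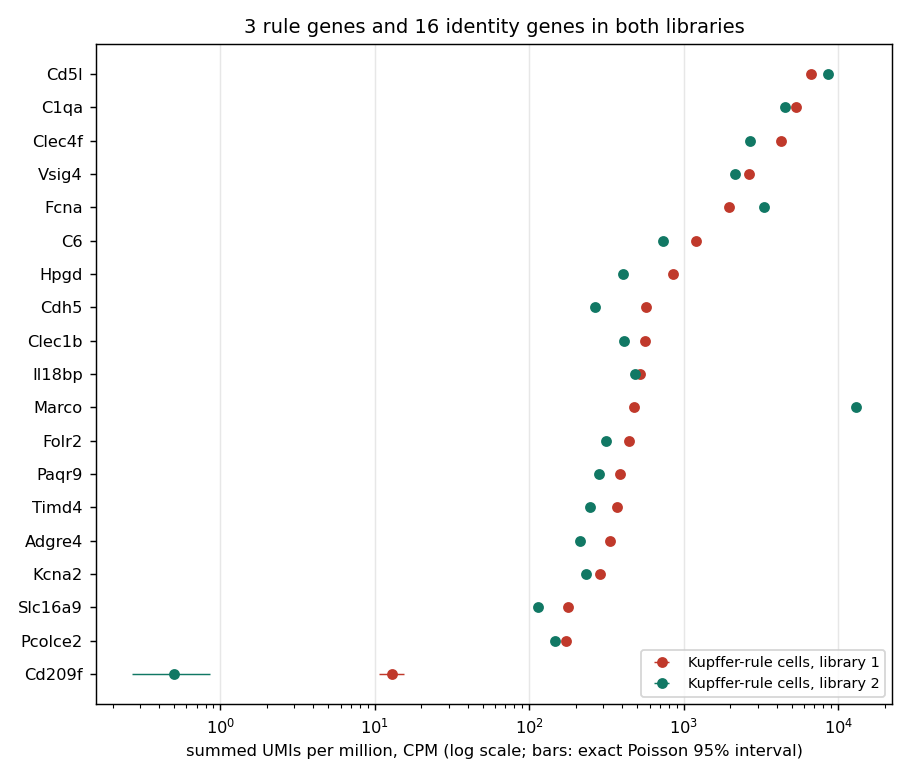
Summed level of the 3 genes of the rule and the 16 identity genes outside it in Kupffer-rule cells of library 1 and library 2, in CPM on a log axis, with exact Poisson 95% intervals (counting error only). Most pairs of points lie close together, Marco lies far to the right in library 2 (13013 against 476 CPM) and Cd209f far to the left (0.500 against 12.9 CPM).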

How the data were processed

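Single-cell RNA was measured in 2 libraries of bead-enriched liver cells, with the 10x Genomics 3' kit. The deposited matrix holds UMI counts per gene and barcode, 26078 genes in all, not normalized. Cell Ranger 3.0.1, R 3.6.1 and GRCm38.p5 are named in the submitters' processing notes, without their roles. Libraries are told apart by barcode suffix. Counts were summed per group and scaled to 1000000 UMIs of the group's total (CPM). Levels carry exact Poisson and ratios exact conditional 95% intervals, covering counting error only. With 1 library per group no p-value was computed. Genes with at least 10 CPM in either group were compared, and a gene at 0 was set at 3 UMIs. Depth was 500 to 29011 UMIs per Kupffer-rule cell. Shares of cells were compared after thinning to 1000 UMIs, with 2000 as an alternative.

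Genes named beyond the fixed lists were the 25 highest and 12 lowest ratios among genes with at least 50 CPM and 30 UMIs in the higher group, without genes of the rule, mitochondrial genes and numbered predicted genes, and the 15 highest variance-to-mean ratios. The members and the gene lists were chosen with earlier results of these data known. No doublet caller was run. Cells past both limits, where droplets joining Kupffer and endothelial cells would fall, were kept out of the Kupffer-rule cells. They were not tested for being doublets. In a shallow cell 1 endothelial UMI is enough to pass the 0.05% limit. Those 139 cells of library 1 had a median endothelial share of 0.103% and a 25th percentile of depth of 1503.5 UMIs. An alternative left out the deepest 5% of the Kupffer-rule cells. The comparison was also run on simulated counts that varied by counting error alone, so this says nothing about spread between cells or libraries. Coordinates are from GENCODE vM21 (GRCm38). The software was scipy 1.17.1, numpy 2.4.6 and pandas 2.3.3 under Python 3.11.15, with matplotlib 3.10.9 for figures. Some members of the gene lists are counted in the list totals but are not reported here by name.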

Additional observations from a re-analysis of the deposited data

Results flagged for a closer look

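Barcodes left out of the comparisons also met the gene limits of the Kupffer rule. Of 5311 barcodes of library 1 over the mitochondrial limit, 1786 (33.6%, exact interval 32.4 to 34.9) met the gene limits of the Kupffer rule, with a median mitochondrial share of 28.2% and 3865 UMIs. With mitochondrial genes left out of the total, all 16 identity genes outside the rule were within 2-fold of the Kupffer-rule cells in them. The same held for every gene of the other role lists except Mfge8 and Fosb, so the count is not particular to the identity genes. The share over all genes was not computed. Of the 815 barcodes left out because their sequence was deeper in library 2, 434 (53.3%, 49.8 to 56.7) met the rule. The median depth of the 815 was 687 UMIs. Genes outside the rule were not measured separately in the 434.

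For 16 genes of the fixed lists the log2 ratio to the other cells lay on opposite sides of 0 in the 2 libraries. They were picked from the named genes by intervals clear of 0 in both libraries and at least 2-fold in 1 or both. Genes with no UMI in a group were left out. The share of all genes that met these limits was not computed. The difference between the libraries was not tested, and the other cells of library 2 held erythroid genes at 218822 CPM against 2719 CPM in library 1. Among signalling genes, the log2 ratio was -1.19 in library 1 and 0.30 in library 2 for Notch1, -1.03 and 0.27 for Bmpr2, -1.38 and 0.28 for Smad6, and -0.69 and 1.02 for Tgfbr1. Maf had -0.0501 and 1.14. Among uptake, lysozyme and iron genes, Gas6 had -2.20 and 1.13, Stab2 -1.72 and 0.26, Lyz2 -0.50 and 1.18, and Tfrc 0.86 and -2.82. Among inflammatory and stress genes, Ccl3 had -1.24 and 1.33, Ccl9 -2.47 and 0.16, Il1rn -0.30 and 1.43, Gbp2 -1.18 and 1.62, Egr1 -1.30 and 0.53, and Atf3 -0.73 and 1.01. The B cell gene Cd79b had -1.08 and 0.40.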

How the results depend on the processing

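The alternatives were run on 4 values (and on shares of cells with a UMI, which were higher at 2000 than at 1000 UMIs for all 25 genes run), and the sign of the log2 ratio did not change. The directions of single genes and of other lists were not rerun. The values as reported were a share of 57.0%, 287 genes higher, 1357 lower and a summed log2 ratio of the identity genes of 1.71. Requiring 0.5% of the rule's genes gave a share of 63.8% and a log2 ratio of 1.80, and requiring 2% gave 8.27%, 29 genes higher, 751 lower and 0.66. An endothelial limit of 0.1% gave 59.4% and 1.98, and no such limit 62.2% and 2.34. A mitochondrial limit of 10% gave 44.4%, 657 genes higher and 2.53, and one of 40% gave 51.6%, 143 genes higher and 1.32. A minimum of 50 CPM gave 191 genes higher and 413 lower, and no minimum gave 588 and 3924. Counts within 1.5 times the reported one are not listed, apart from 1819 genes lower with cells weighted equally. The log2 ratio moved to 1.68 with shared barcodes kept, 1.62 with UMIs split, 1.63 with cells weighted equally, 1.76 without mitochondrial and rule genes, and 1.67 without any shared sequence, an alternative chosen after seeing the data. The cause of these shifts was not tested. A minimum of 500 genes and leaving out the deepest cells kept the share and log2 ratio within their 95% intervals and the counts within 1.5 times. No paired analysis was possible because each group is 1 library and no test was made. Depth limits rare genes: those with few UMIs, such as Cd209f, have wide intervals.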
